A study of Homo sapiens with 6 samples.

Results

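RAB genes encode small GTPases, and the 49 analysed here are the protein-coding genes of the deposited table whose symbol is RAB followed by a number and at most 1 letter. They were taken from 19498 genes, of which 13771 are annotated as protein-coding, by symbol alone. K562 is an established human line of chronic myeloid leukaemia origin with the BCR::ABL1 fusion kinase. Polyadenylated RNA was sequenced from 3 biological replicates of K562 cells labelled WT and 3 labelled ACK KO, and the labels name no drug or other agent for either group. ACK, encoded by TNK2, is a tyrosine kinase of the cytoplasm and an effector of the small GTPase Cdc42. The labels name 1 line per genotype and do not say whether the replicates were separate cultures or clones, so genotype and line cannot be told apart, and p-values cover only how far these libraries vary, which may be technical. A further 14 RAB genes (RAB3C, RAB6C, RAB6D, RAB7B, RAB9B, RAB17, RAB19, RAB25, RAB33A, RAB39A, RAB39B, RAB41, RAB42 and RAB44) were not analysed here.

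RAB proteins mark the membranes of the secretory and endocytic pathways and recruit the tethers, motors and adaptors that move and fuse vesicles. Each is switched on by a guanine nucleotide exchange factor (GEF), which loads GTP, and switched off by a GTPase-activating protein (GAP). RAB escort proteins present newly made RABs for the prenylation that anchors them in membranes, and GDP dissociation inhibitors carry them between membrane and cytosol. In blood cells, RAB27 and RAB32/38 proteins are known for secretory and lysosome-related granules, and RAB5, RAB4 and RAB11 for the uptake and return of surface receptors such as the transferrin receptor.

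TNK2 was measured first, as a check of the labels. Its normalised values, in replicates 1 to 3, were 829.7, 613 and 642 for WT cells and, overlapping with these, 741, 506 and 598 for cells labelled ACK KO. The log2 difference was -0.18 with a 95% interval from -0.68 to 0.32 (limma). The two-sided p of an exact permutation of the 6 libraries was 0.4, and 3 against 3 cannot go below 0.1. The amount of TNK2 mRNA is thus no check of the label, and the second group is called KO-labelled below. The values of a library summed to 43.48 M to 53.3 M and its read depth is unknown. All 11 erythroid genes checked as markers of K562, among them GATA1 and the embryonic and fetal globins, had values of 10 or more in all 6 libraries, and their summed level was 69605 to 138550 in WT and 79684 to 129955 in the KO-labelled libraries. Single markers differed without overlap: the embryonic globin gene HBE1 had 1387, 1031 and 1527 in WT and 9391, 10443 and 17322 in the KO-labelled libraries, and GATA1 had 9877, 8842 and 8921, then 6980, 7030 and 6863. Of the markers of other cell types that have values here, the T cell gene CD3D ranged from 400 to 1708 and the epithelial gene EPCAM from 4344 to 5171 over both groups. COL1A1, a fibroblast collagen, had 11.98, 4.68 and 32.2 in WT and 204, 74.6 and 121 in the KO-labelled libraries, and the part of these markers in the results below was not tested.

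Of the 49 RAB genes, 46 reached 10 in no fewer than 3 of the 6 libraries and were tested. In the KO-labelled libraries 4 rose (RAB13, RAB32, RAB15 and RAB22A) and 7 fell (RAB27B, RAB30, RAB38, RAB8B, RAB20, RAB24 and RAB4A), and 35 did not pass an adjusted p of 0.05 (limma, Benjamini-Hochberg over all 16658 genes tested). These 11 are 23.9% of the RAB genes tested, beside 10.3% of all genes tested, of which 5.37% were called higher and 4.96% lower. At least 2-fold as well were 7 RAB genes, or 15.2%, beside 7.31% of all genes. RAB13, RAB32, RAB15 and RAB27B passed the filter on low values only through the group where they were high. The filter thus favours members that differ in the count of called genes. The values of the WT and KO-labelled libraries did not overlap for 15 of the RAB genes tested, or 32.6%, beside 30.0% of all genes. With the replicate number added to the model as a block, 21 RAB genes passed, 10 higher and 11 lower, or 45.7%, beside 39.7% of all genes, and all 11 genes of the fit without the block were among them.

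The changes were large in a few genes and small in most. The median log2 difference of the 46 genes was -0.02, as was that of all genes tested, and the median size of the difference was 0.24 on the log2 scale against 0.31 for all genes. Of the 35 genes that did not pass, 25 had fitted differences under 1.2-fold in either direction and 30 under 1.5-fold. The differences of the called genes spanned log2 values from -5.24 for RAB27B to 7.98 for RAB13. At least 1 gene passed in 6 of the 7 groups by cellular role used below, and none of the 5 genes of the group of ciliary and other RABs passed.

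**Figure D1:**
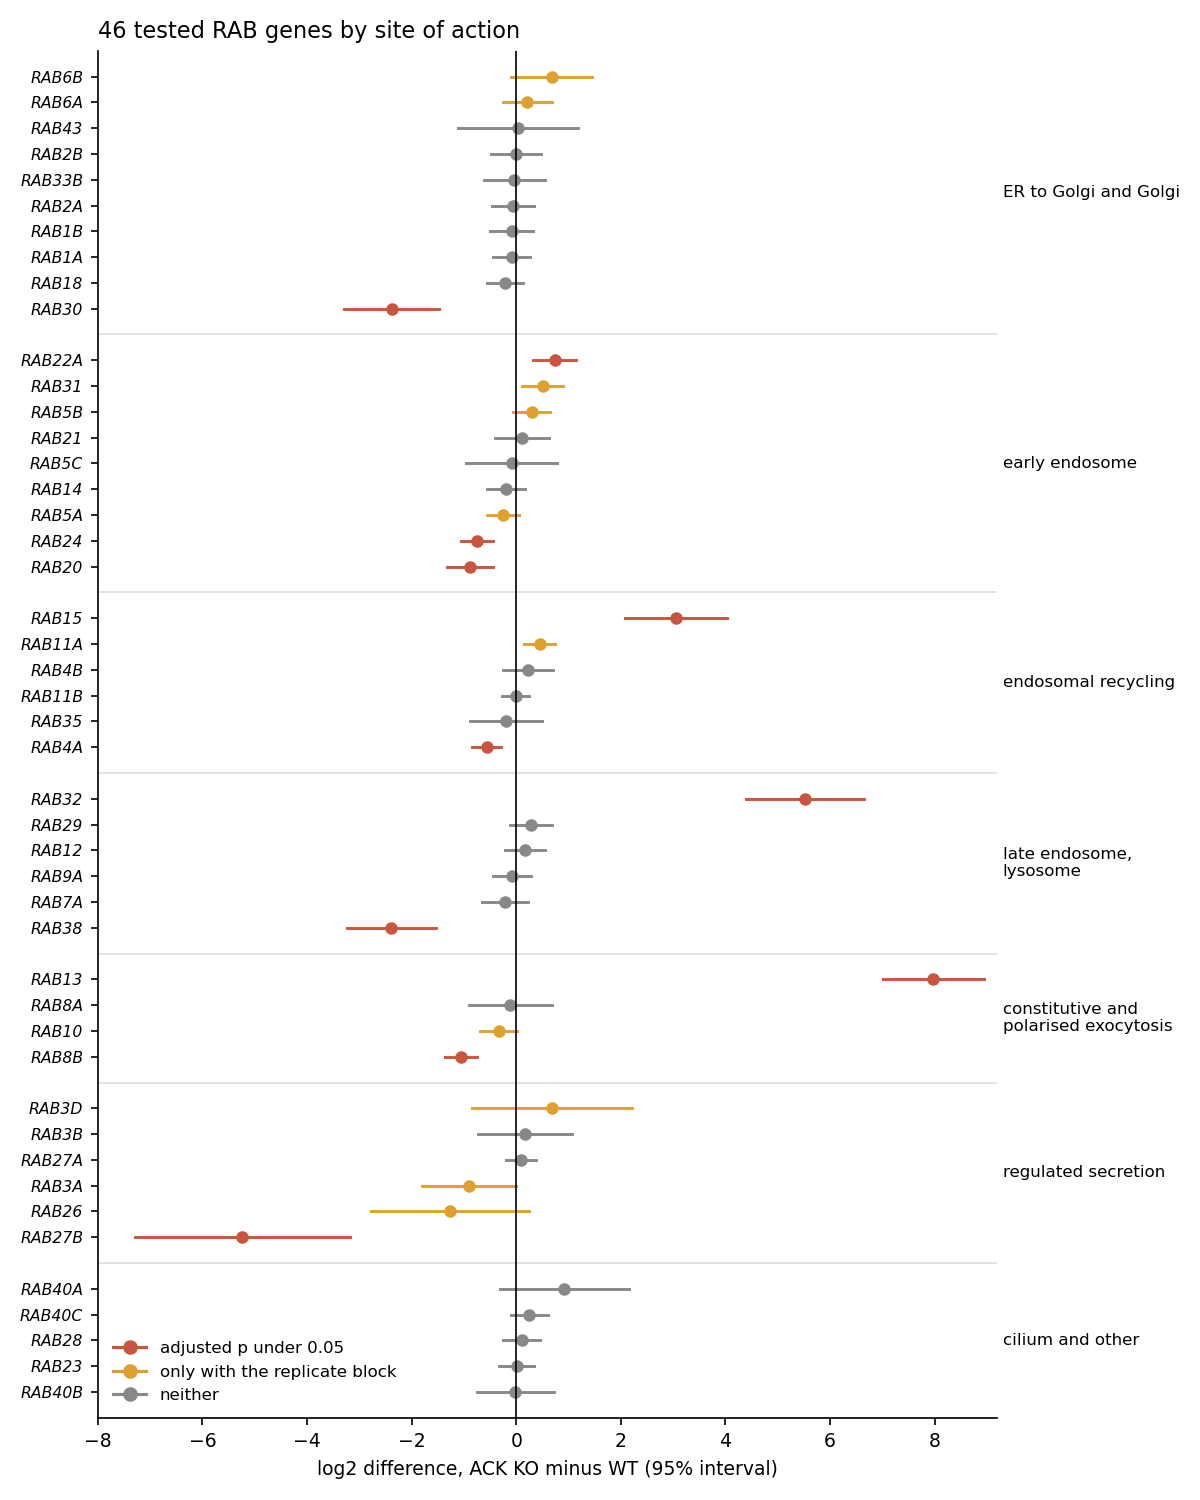
Log2 difference (KO-labelled minus WT, log2(value + 1) scale) of the 46 RAB genes tested, grouped by role, with 95% intervals from limma. Red points passed an adjusted p of 0.05, orange points passed with the replicate block alone and grey points passed in neither; RAB13, RAB32 and RAB15 lie far to the right and RAB27B far to the left, while most genes lie near 0.

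Levels of different genes were compared per kilobase of merged annotated exons. In WT the most abundant RAB mRNA was RAB7A, which directs late endosomes to lysosomes, at 3221 ± 663 normalised counts per kb (SD, n = 3). RAB10, which acts in transport to the cell surface and in recycling, had 2877 ± 366 per kb and RAB1B, which acts between endoplasmic reticulum and Golgi, 2447 ± 367 per kb. RAB1A followed with 1867 ± 250 per kb and the early endosomal RAB5C with 1781 ± 726 per kb. RAB14, of Golgi and early endosomes, had 1213 ± 117 per kb and RAB27A, of secretory granules, 1157 ± 110 per kb. In this order of 7 genes, the ranges of 1 SD of each gene and the next overlapped. Within the roles, the highest WT levels per kb were those of RAB1B, RAB5C, RAB35, RAB7A, RAB10, RAB27A and RAB28, and with the longest coding transcript as the length RAB1A took the place of RAB1B.

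The 5 most abundant RAB mRNAs of WT held the first 5 places in the KO-labelled libraries too. RAB7A then had 2732 ± 280 per kb, RAB1B 2306 ± 353, RAB10 2281 ± 263, RAB1A 1751 ± 183 and RAB5C 1603 ± 418, and none of the 5 passed the test. RAB13 moved from place 47 of 49, at 2.46 ± 1.63 per kb, to place 14, at 646 ± 70.5 per kb. RAB32 moved from place 43 to place 22 and RAB27B from place 37 to place 48. RAB15 stayed low among the RAB mRNAs, at place 46 with 2.98 ± 1.14 per kb in WT and place 41 with 26.0 ± 8.92 per kb in the KO-labelled libraries.

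**Figure D2:**
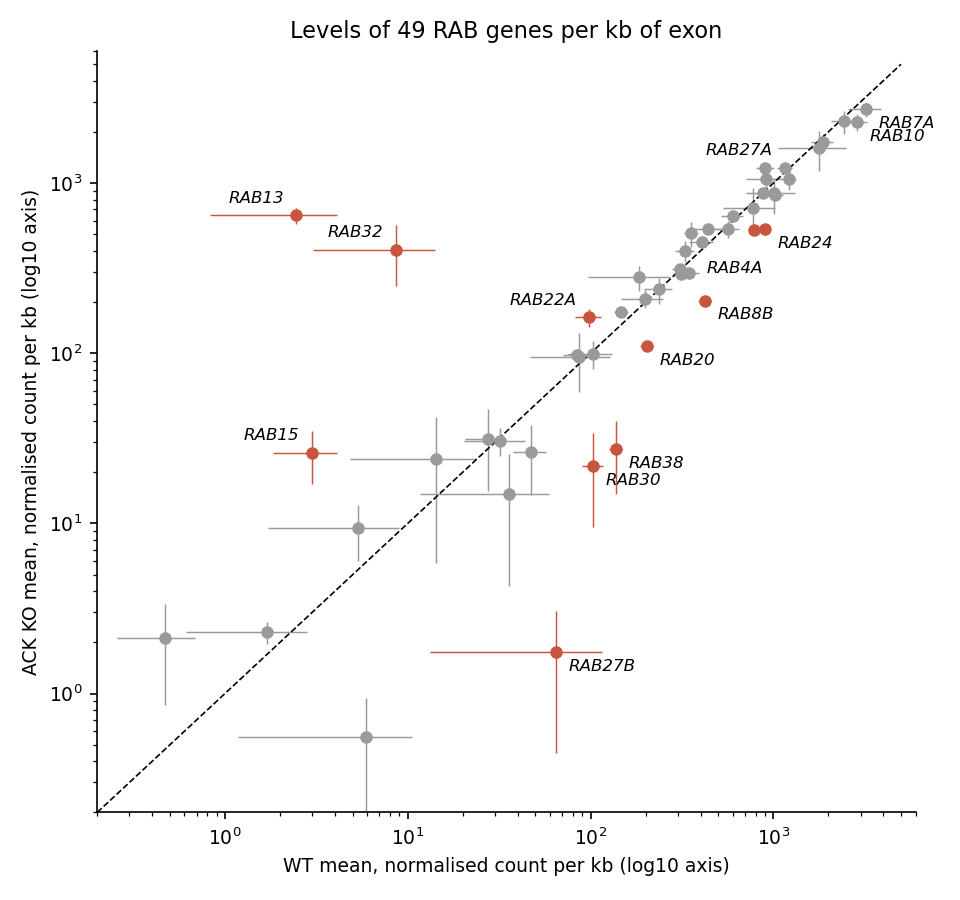
Mean level of each of the 49 RAB genes per kilobase of merged exons in WT (x axis) and in the KO-labelled libraries (y axis), both axes logarithmic, with bars of 1 SD (n = 3) and the line of equal levels; red points passed an adjusted p of 0.05. Most genes lie near the line; RAB13 (2.46 and 646 per kb) and RAB32 lie far above it and RAB27B far below it.

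RAB13 had the greatest difference of the RAB genes. It acts in transport to the plasma membrane and is known for its part in tight junctions and at the leading edge of moving cells. The gene lies on the minus strand at chr1:153981617-153986358 in GRCh38. WT replicates 1 to 3 had normalised values of 11.9, 3.75 and 4.64, against 1904, 1553 and 1872 for the KO-labelled libraries. Every KO-labelled library stood far above every WT library. The means were 6.77 ± 4.48 and 1776 ± 194 (n = 3 each, SD), a fitted log2 change of 7.98 (SE 0.41), or 252-fold, at an adjusted p of 0.000115 (limma). Because the WT values are near 0 the size depends on the pseudocount, and with 5 in place of 1 the log2 difference was 7.30. RAB13 shares 24.8% of its exon bases with AL358472.6 on the same strand, and how reads from the shared bases were assigned is not known here. The 41 other tested genes whose start lies within 1 Mb of that of RAB13 had a median log2 difference of -0.05.

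The other 3 genes of the group for constitutive and polarised exocytosis were RAB8A, RAB8B and RAB10. RAB8B, which with RAB8A carries cargo from Golgi and recycling endosomes to the surface, had 1984, 2305 and 2308 in WT, against 1035, 1069 and 1075 in the KO-labelled libraries. It fell from 2199 ± 186 to 1059.9 ± 21.3, a fitted log2 change of -1.05 (SE 0.13), or 2.07-fold, at an adjusted p of 0.00378 (limma). The KO-labelled libraries of RAB8B lay closer together than those of any other called gene in units of their mean. RAB8A had 2555, 4950 and 4570 in WT and 2413, 4568 and 4151 in the KO-labelled libraries, with replicate 1 low in both groups, a log2 difference of -0.11 and an adjusted p of 0.886. RAB10 had 10448 ± 1330 and 8284 ± 953, a log2 difference of -0.33 at an adjusted p of 0.239,, or 0.00394 once blocked. Between RAB13 up and RAB8B down, the group thus held changes in both directions.

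Among the 6 RABs of late endosomes, lysosomes and lysosome-related organelles, RAB32 rose and RAB38 fell. The pair are close paralogues that act in the making of melanosomes and platelet dense granules, and the complex of HPS1 and HPS4 is their exchange factor. RAB32 had 18.3, 6.36 and 6.72 in WT and 716, 384 and 386 in the KO-labelled libraries, with replicate 1 the highest of both groups. It rose from 10.4 ± 6.77 to 495 ± 191, a fitted log2 change of 5.52 (SE 0.48), or 46.04-fold, at an adjusted p of 0.000911 (limma). RAB38 had 183, 205 and 215 in WT and 25.2, 60.3 and 34.7 in the KO-labelled libraries. It fell from 201 ± 16.3 to 40.1 ± 18.1, a fitted log2 change of -2.38 (SE 0.36), or 5.22-fold, at an adjusted p of 0.00860 (limma), which became 0.0505 without WT replicate 3. The other members, RAB7A, RAB9A, RAB12 and RAB29, did not pass. Of the proteins that act on RAB32 and RAB38, HPS1 had 1400 ± 53.2 and 1169 ± 173 (adjusted p 0.351, limma) and HPS4 3365 ± 915 and 2882 ± 389 (adjusted p 0.652).

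Of the 7 genes for regulated secretion, 6 were tested, and RAB27B fell while 5 did not pass. RAB27B acts in the docking of secretory granules and in the release of exosomes, and it is known in platelets for dense granules. WT replicates 1 to 3 had 922, 286 and 235, against 20.7, 2.07 and 16.5 for the KO-labelled libraries. WT replicate 1 was more than 3 times above the other WT libraries, and the groups did not overlap. RAB27B fell from 481 ± 383 to 13.1 ± 9.75, a fitted log2 change of -5.24 (SE 0.86), or 37.8-fold, at an adjusted p of 0.0120 (limma). The difference was -4.35 with KO-labelled replicate 2 left out and -4.63 with WT replicate 1 left out, and RAB27B passed in each of the 6 fits without 1 library. Its paralogue RAB27A, the leading member of the group per kb, had 6484 ± 618 and 6909 ± 335, a log2 difference of 0.09 with a 95% interval from -0.19 to 0.38.

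The secretory vesicle and granule genes RAB3A, RAB3D and RAB26 passed with the block and not without it. RAB3A had a log2 difference of -0.90 (adjusted p 0.209, and 0.0253 with the block, limma). RAB26 had 158, 54.3 and 54.3 in WT and 67.3, 16.6 and 27.9 in the KO-labelled libraries, lower in each replicate number, with a log2 difference of -1.27 (adjusted p 0.293, and 0.00905 with the block). RAB3D had a log2 difference of 0.68 (adjusted p 0.595, and 0.0457 with the block). RAB37, which was under the filter, had 54.5, 6.86 and 28.1 in WT and 5.02, 2.14 and 1.24 in the KO-labelled libraries and was not tested.

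RAB15 rose among the 6 recycling RABs and RAB4A fell. RAB15 slows traffic of the transferrin receptor through early and recycling endosomes. It had 9.13, 15.1 and 20.6 in WT and 182, 99.8 and 109 in the KO-labelled libraries, without overlap. The fitted log2 change was 3.06 (SE 0.41), or 8.33-fold, at an adjusted p of 0.00556 (limma). RAB4A, which serves the fast return of receptors from early endosomes, had 2546, 2692 and 2566 in WT and 1856, 1651 and 1791 in the KO-labelled libraries. It fell from 2601 ± 79.1 to 1766 ± 105, a fitted log2 change of -0.56 (SE 0.12), or 1.47-fold, at an adjusted p of 0.0283 (limma). That call was lost without each of WT replicates 2 and 3 and KO-labelled replicates 1, 2 and 3, with adjusted p of 0.118, 0.122, 0.0521, 0.114 and 0.125, and also when libraries were scaled to the same sum (0.0807) and without the intensity trend (0.0583). RAB4A shares 19.6% of its exon bases with SPHAR.

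RAB11A, the central RAB of the slow recycling compartment, had 4574, 5674 and 5198 in WT and 6591, 7078 and 7344 in the KO-labelled libraries. Every KO-labelled library was above every WT library, but the adjusted p was 0.0763 (limma) for a log2 difference of 0.45, and 0.00232 with the block. It passed without the block when libraries were scaled to the same sum, at an adjusted p of 0.0179. RAB35, the leading member of the group per kb in WT, had 4066 ± 1217 and 3497 ± 840, and RAB11B and RAB4B did not pass either. In the KO-labelled libraries RAB11A led the group, at 1233 per kb, above RAB11B at 875 and RAB35 at 869.

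Of the 9 RABs placed in the early endosomal group, RAB22A rose and RAB20 and RAB24 fell. The place of RAB24 in this group is a choice of the list used here. RAB22A, which acts between early endosomes and recycling tubules, had 827, 1079.8 and 817 in WT and 1319, 1678 and 1524 in the KO-labelled libraries. The fitted log2 change was 0.74 (SE 0.17), or 1.67-fold, at an adjusted p of 0.0439 (limma). This call was the weakest of the 11, being lost in each of the 6 fits without 1 library, at adjusted p of 0.0646, 0.0540 and 0.177 without WT replicates 1, 2 and 3 and of 0.0571, 0.156 and 0.168 without KO-labelled replicates 1, 2 and 3, and without the intensity trend (0.0673). RAB22A lies on chromosome 20, where the 17 neighbours within 1 Mb had a median log2 difference of 0.49 and all tested genes of the chromosome one of 0.54, close to its own.

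RAB20, an endosomal and phagosomal RAB, had 285, 335 and 306 in WT and 173, 169 and 159 in the KO-labelled libraries. Its fitted log2 change was -0.88 (SE 0.19), or 1.84-fold, at an adjusted p of 0.0300 (limma). The call was kept without WT replicate 1 and lost without WT replicates 2 and 3 (0.131 and 0.130) and without KO-labelled replicates 1, 2 and 3 (0.0622, 0.101 and 0.140), and also with libraries scaled to the same sum (0.0536). RAB24, an unusual RAB linked to late steps of autophagy, had 1948, 1844 and 1783 in WT and 1171, 1128 and 1019 in the KO-labelled libraries. Its fitted log2 change was -0.75 (SE 0.13), or 1.68-fold, at an adjusted p of 0.0134 (limma). That call was lost without WT replicates 2 and 3 (0.0620 and 0.0655) and without KO-labelled replicates 2 and 3 (0.0559 and 0.0812). RAB24 shares 44.8% of its exon bases with MXD3 on the same strand and lies on chromosome 5, where its 41 neighbours had a median log2 difference of -0.69.

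The 3 RAB5 genes, which define early endosomes, did not pass without the block. RAB5A had 3846 ± 410 and 3219 ± 189 (log2 difference -0.25, adjusted p 0.299, and 0.0237 with the block, limma). RAB5B had 2902 ± 490 and 3528 ± 142 (0.29, adjusted p 0.297, and 0.0439 with the block). RAB5C had 2672, 6522 and 5557 in WT and 3142, 5378 and 4759 in the KO-labelled libraries, so that replicate 1 lay apart from replicates 2 and 3 in both groups by more than the groups differed. RAB31, which acts between the trans-Golgi and endosomes, had 2024, 1789 and 2154 in WT and 2966, 2314 and 3239 in the KO-labelled libraries, a log2 difference of 0.50 (adjusted p 0.118, and 0.00246 with the block).

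Of the 12 RABs of the endoplasmic reticulum and Golgi, 10 were tested and RAB30 alone passed without the block. RAB30 localises to the Golgi. It had 1035, 1317 and 1328 in WT, against 421, 148 and 202 in the KO-labelled libraries, without overlap. It fell from 1227 ± 166 to 257 ± 144, a fitted log2 change of -2.38 (SE 0.38), or 5.22-fold, at an adjusted p of 0.0106 (limma). The adjusted p was 0.0570 with WT replicate 3 left out and 0.0561 with KO-labelled replicate 3 left out. RAB6A and RAB6B, of traffic at the Golgi, passed with the block alone, at log2 differences of 0.21 (adjusted p 0.583, and 0.0400 with the block) and 0.68 (0.271, and 0.0184 with the block). RAB6B also passed without WT replicate 1, at a log2 difference of 1.04 and an adjusted p of 0.0181.

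The genes that act between endoplasmic reticulum and Golgi did not pass. RAB1A had 6183 ± 827 and 5798 ± 607 (adjusted p 0.788, limma) and RAB1B 4911 ± 737 and 4628 ± 708 (adjusted p 0.827). RAB2A, RAB2B, RAB18, RAB33B and RAB43 did not pass either, and 79.3% of the exon bases of RAB43 also belong to the read-through gene ISY1-RAB43. RAB34 had 2.49, 4.89 and 9.64 in WT and 7.76, 8.62 and 6.44 in the KO-labelled libraries, and RAB36 had 2.88, 1.80 and 1.12 and then 2.79, 12.4 and 10.8, both under the filter. The 5 genes of the ciliary and other RABs, which include RAB23 of the primary cilium, RAB28 and the RAB40 genes of ubiquitin ligase complexes, had log2 differences from -0.02 to 0.92. RAB40A had the latter, from 21.4 ± 14.4 to 37.8 ± 13.6, at an adjusted p of 0.351, and it has a near-identical copy, RAB40AL, with which it can share reads. RAB28 led this group per kb, with 1333 ± 182 and 1426 ± 101 normalised counts.

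**Figure D3:**
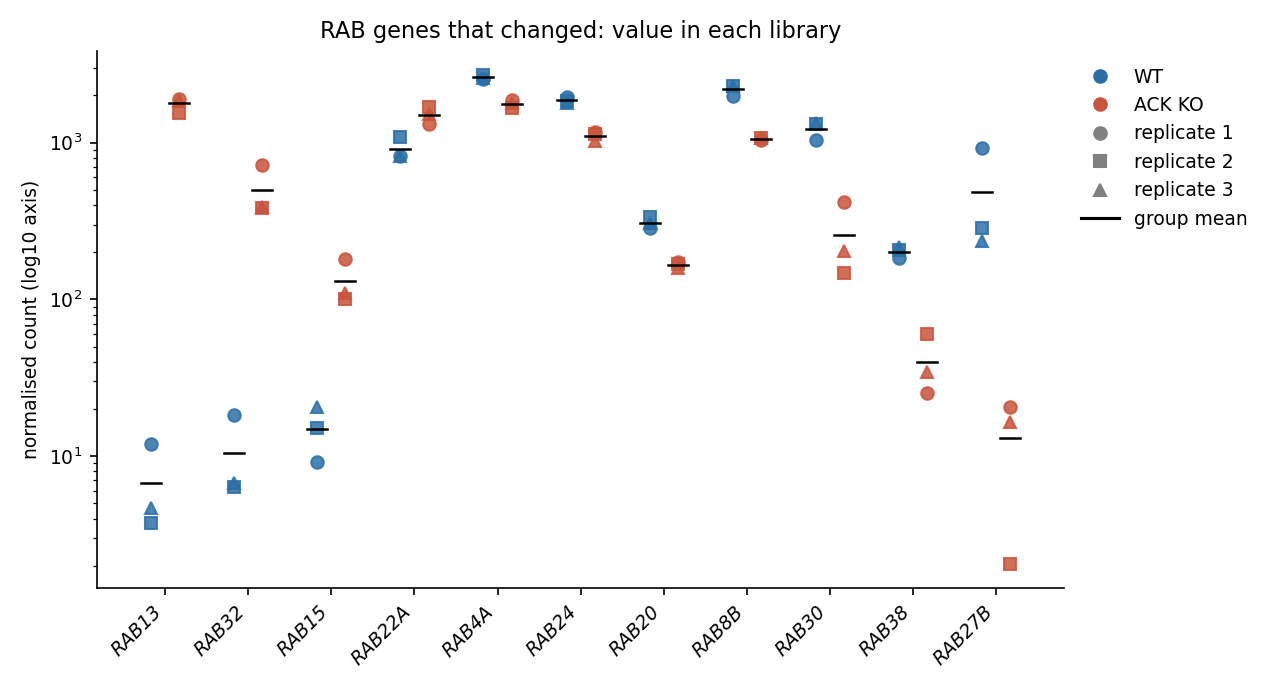
Normalised values of the 11 RAB genes that passed an adjusted p of 0.05, with a point per library (its shape gives the replicate number) and a bar at the mean of 3 libraries per group, on a logarithmic axis. The groups are separated for every gene; WT is near 0 for RAB13, RAB32 and RAB15, and the KO-labelled group is near 0 for RAB27B.

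The promoters of the RAB genes with the 3 greatest fold differences, and of RAB30, are shown so that the letters stand beside the values. They are the 250 bases before an annotated transcription start in RefSeq on GRCh38.p14, read 5′ to 3′ along the strand of the gene. RefSeq windows were matched for 39 of the 49 RAB genes, 59 windows in all. Of the genes that passed, RAB15, RAB20 and RAB38 had no window. RAB13 and RAB27B have 2 windows each, both printed. In the first 5 sequences the CpG dinucleotides are in capitals.

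RAB13, chr1:153986340-153986589, minus strand: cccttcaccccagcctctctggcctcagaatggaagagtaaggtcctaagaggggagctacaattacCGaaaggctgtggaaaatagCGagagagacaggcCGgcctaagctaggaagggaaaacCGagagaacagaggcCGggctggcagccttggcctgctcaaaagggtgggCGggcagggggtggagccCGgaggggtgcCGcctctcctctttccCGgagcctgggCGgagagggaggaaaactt
RAB13, chr1:153985394-153985643, minus strand: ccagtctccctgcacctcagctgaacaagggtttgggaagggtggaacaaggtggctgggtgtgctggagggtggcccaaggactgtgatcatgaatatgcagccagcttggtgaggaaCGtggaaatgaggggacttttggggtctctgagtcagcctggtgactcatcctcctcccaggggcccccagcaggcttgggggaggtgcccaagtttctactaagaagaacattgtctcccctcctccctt
RAB32, chr6:146543583-146543832, plus strand: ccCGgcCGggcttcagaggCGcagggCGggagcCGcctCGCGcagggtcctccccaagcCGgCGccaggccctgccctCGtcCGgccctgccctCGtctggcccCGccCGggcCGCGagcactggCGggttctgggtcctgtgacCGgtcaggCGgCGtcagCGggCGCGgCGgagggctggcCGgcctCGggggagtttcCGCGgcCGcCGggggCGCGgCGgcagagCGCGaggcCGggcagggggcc
RAB27B, chr18:54717607-54717856, plus strand: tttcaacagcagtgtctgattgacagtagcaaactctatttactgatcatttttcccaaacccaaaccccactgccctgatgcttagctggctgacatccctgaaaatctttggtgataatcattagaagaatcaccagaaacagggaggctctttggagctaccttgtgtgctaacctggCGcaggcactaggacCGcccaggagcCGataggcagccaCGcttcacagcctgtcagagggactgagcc
RAB27B, chr18:54828227-54828476, plus strand: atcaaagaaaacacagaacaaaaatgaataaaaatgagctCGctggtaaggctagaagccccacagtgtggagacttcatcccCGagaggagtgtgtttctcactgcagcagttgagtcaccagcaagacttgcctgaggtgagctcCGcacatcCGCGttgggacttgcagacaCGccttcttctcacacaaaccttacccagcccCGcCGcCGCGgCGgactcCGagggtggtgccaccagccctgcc

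These windows held 10 and 1 CpG for RAB13, 36 for RAB32 and 4 and 12 for RAB27B. The median was 20 over the 59 RAB windows and 11 over all 35116 windows of the table, whose quartiles were 3 and 23, so that of RAB32 lay above the upper quartile and the others did not. RAB32 and RAB13, which both rose from WT values near 0, thus differ in the CpG content printed here. Methylation and factor binding at these windows were not analysed here.

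The title of the series places the study around STAT5, whose known motif is TTCNNNGAA. The motif was searched on both strands of the printed windows. It stood in 6.57% of all windows and in 2 of the RAB windows, those of RAB1B and RAB30. RAB30 has 3 windows, and the 1 with the match is printed, with the match in capitals.

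RAB30, chr11:83071898-83072147, minus strand: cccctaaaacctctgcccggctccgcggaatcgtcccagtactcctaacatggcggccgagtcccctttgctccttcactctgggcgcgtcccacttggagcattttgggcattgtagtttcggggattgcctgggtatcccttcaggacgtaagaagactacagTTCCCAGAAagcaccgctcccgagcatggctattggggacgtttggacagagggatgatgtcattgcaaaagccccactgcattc

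RAB30 fell and RAB1B did not pass. The GATA motif AGATAA stood in 9.17% of all windows and in 4 RAB windows, none of a gene that passed. The E-box CACGTG stood in 6.34% of all windows and in 5 RAB windows, with RAB24 and RAB4A among them. RAB15, RAB20 and RAB38, which passed, had no window to search. No motif of the 3 holds another. A match is a description of the letters and does not show a bound site.

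Paralogues of some RAB families did not move alike, and shares of a family's sum per kb were therefore described. RAB32 held 10.7%, 3.599% and 3.63% of the RAB32 and RAB38 sum across WT replicates 1 to 3, against 97.2%, 88.4% and 93.1% in the KO-labelled libraries. The sum of the pair was 140, 145 and 152 per kb in WT and 606, 356 and 341 per kb in the KO-labelled libraries. The main mRNA of this pair was therefore RAB38 in every WT library and RAB32 in every KO-labelled library. RAB27B held 8.81%, 3.43% and 2.79% of the RAB27 sum in WT and 0.233%, 0.0231% and 0.170% in the KO-labelled libraries. RAB27A made up the rest and was the main form in all 6 libraries.

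RAB8B held 43.7%, 31.7% and 33.5% of the RAB8 sum in WT and 30.0%, 18.9% and 20.5% in the KO-labelled libraries. The lowest WT share of RAB8B, 31.7%, lay near the highest KO-labelled share, 30.0%, and replicate 1 was the highest in both groups. RAB4B held 11.1%, 7.88% and 10.1% of the RAB4 sum in WT and 15.4%, 14.9% and 16.0% in the KO-labelled libraries. Exons of RAB4B also belong to the read-through genes MIA-RAB4B and RAB4B-EGLN2, so its share is uncertain. RAB11A held 47.2%, 53.3% and 51.2% of the RAB11 sum in WT and 57.8%, 58.1% and 59.4% in the KO-labelled libraries. Such shares depend on the length used. With the longest coding transcript RAB11A held 42.3%, 48.2% and 46.1% in WT and 52.8%, 53.2% and 54.4% in the KO-labelled libraries. The mean WT shares were then 24.7% for RAB8B and 24.3% for RAB4B. The log2 ratio of the members changed by 7.91 for RAB32 over RAB38, -5.33 for RAB27B over RAB27A, -0.94 for RAB8B over RAB8A, -0.78 for RAB4A over RAB4B and 0.46 for RAB11A over RAB11B. These 5 pairs were chosen after their members' values were seen, so the ratios are a description with no test. In the related pair of RAB22A, which rose, and RAB31, the shares overlapped: RAB22A held 19.7%, 26.6% and 18.6% of their sum in WT and 21.1%, 30.4% and 22.1% in the KO-labelled libraries. RAB1A, by contrast, held 43.3% ± 1.21 of the RAB1 sum in WT and 43.3% ± 1.36 in the KO-labelled libraries. With the longest coding transcript as the length these shares were 50.8% ± 1.23 and 50.8% ± 1.39.

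**Figure D4:**
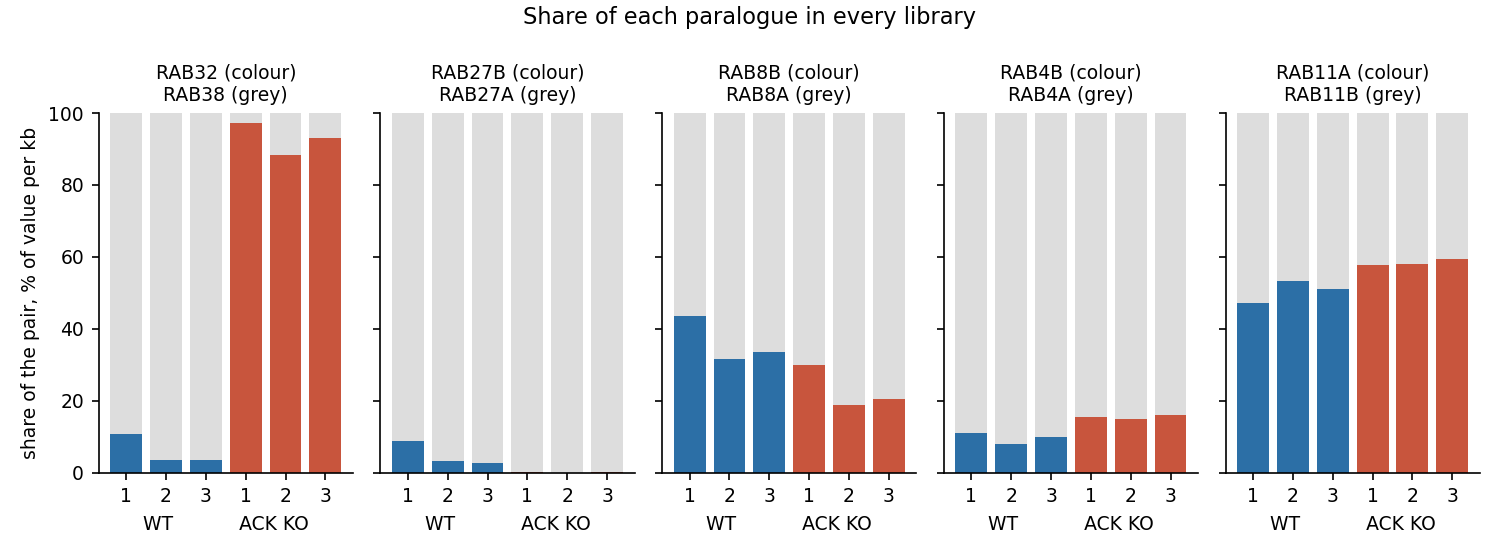
Share of each paralogue in its pair, in percent of the value per kilobase of merged exons, with 1 bar per library for 5 pairs (blue WT, red KO-labelled, grey the other paralogue). RAB32 is the minor form in the WT libraries (3.599% to 10.7%) and the main form in the KO-labelled libraries (88.4% to 97.2%), and RAB27A is the main form of its pair in all 6.

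Earlier results of these data showed shifts of whole chromosomes, and each called RAB gene was therefore set beside its neighbours. For 6 of the 11 (RAB13, RAB32, RAB15, RAB27B, RAB30 and RAB38), the log2 difference lay more than 1 from the median of the other tested genes within 1 Mb. Within 5 Mb the same 6 did so and RAB8B as well. Of these, RAB32 had 9 neighbours with a median of -0.24, RAB15 had 15 with -0.08 and RAB30 had 14 with -0.24. RAB27B fell beside 6 neighbours with a median of 0.50, and RAB38 had only 1 neighbour, at -0.16. For the other 5, RAB24 and RAB22A lay near the medians of their neighbours given above, RAB8B fell by 1.05 beside 19 neighbours with a median of -0.35 (but 77 with a median of 0.06 within 5 Mb), RAB20 had 10 neighbours with a median of -0.07 and RAB4A had 14 with -0.12. Copy number was not analysed here.

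**Figure D5:**
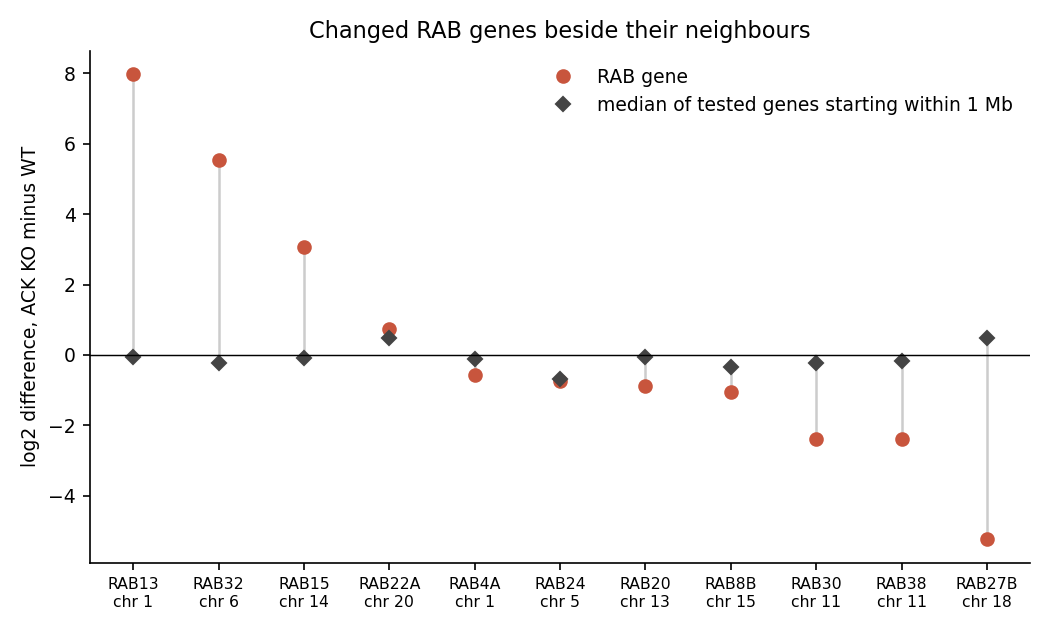
Log2 difference of each called RAB gene (KO-labelled minus WT) beside the median log2 difference of the other tested genes whose start lies within 1 Mb. RAB24 (-0.75 beside -0.69) and RAB22A (0.74 beside 0.49) lie near their neighbours, and RAB13, RAB32 and RAB27B lie far from theirs.

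The proteins that act on RABs were followed in a list of 131 genes, of which 122 were tested. In the KO-labelled libraries 6 rose and 6 fell, or 9.84%, near the 10.3% of all genes. With the block 30 were higher and 22 lower, while 39.7% of all genes passed with it. By kind, 3 of 43 exchange factors rose and 1 fell, 1 of 38 GAPs rose and 2 fell, 2 of 31 effectors rose and none fell, 2 of 8 genes of prenylation and membrane delivery fell, and 1 of 3 genes of RAB phosphorylation fell. LRRK2, a kinase that phosphorylates RAB8, RAB10 and RAB29 among others, had 404, 207 and 250.1 in WT and was listed at 0 in all 3 KO-labelled libraries (adjusted p 8.18e-05, limma). LRRK2 and DENND1C passed the filter on low values only through WT, where they are high, so the filter favours genes that differ in the count of called regulators, too. LRRK1 and the RAB phosphatase gene PPM1H did not pass, at adjusted p of 0.167 and 0.367, and 0.00402 and 0.0300 with the block.

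Of the exchange factors, DENND2B, which activates RAB13, had 117, 157 and 189.9 in WT and 514, 374 and 685 in the KO-labelled libraries. It rose 3.34-fold at an adjusted p of 0.0139 (limma), which was 0.0511 with WT replicate 2 left out and 0.0666 with KO-labelled replicate 3 left out. MICALL2, a RAB13 effector at cell junctions, did not pass, at an adjusted p of 0.154, or 0.0145 once blocked. DENND1C, of a family of RAB35 exchange factors, fell 13.5-fold, from 245, 108 and 112 to 11.2, 6.70 and 12.3, at an adjusted p of 0.00316. RIN3, an exchange factor for RAB5 and RAB31, rose 2.86-fold at an adjusted p of 0.0465, which was lost in all 6 fits without 1 library (0.0542 to 0.183) and with no filter on low values (0.0522). Outside the 2-fold rule, and named after its value was seen, DENND1A had a 1.496-fold rise at an adjusted p of 0.04996, lost in all 6 such fits.

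Of the GAPs, TBC1D8B rose 8.54-fold, from 35.0, 19.7 and 20.1 in WT to 298, 149 and 218 in the KO-labelled libraries, at an adjusted p of 0.00383 (limma). TBC1D10C fell 4.46-fold, from 124, 153 and 201 to 34.7, 26.6 and 43.2, at an adjusted p of 0.00783. TBC1D25, a GAP of autophagosomes, fell 2.03-fold at an adjusted p of 0.0150, which was 0.0668, 0.0611, 0.0622 and 0.0728 without WT replicates 2 and 3 and KO-labelled replicates 2 and 3. Its 48 neighbours within 1 Mb had a median log2 difference of -0.57.

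Of the genes that deliver RABs to membranes, CHML, a RAB escort protein gene, had 8930.4, 11341 and 13164 in WT and 4101, 5378 and 6256 in the KO-labelled libraries. It fell 2.13-fold at an adjusted p of 0.0213 (limma), which was 0.0783, 0.0922 and 0.0714 without WT replicates 2 and 3 and KO-labelled replicate 2. The other escort gene, CHM, did not pass (0.0718, and 0.0118 with the block). GDI2, a GDP dissociation inhibitor named after its value was seen, had 29305, 29507 and 26318 in WT and 17931, 21276 and 19544 in the KO-labelled libraries. It fell 1.45-fold at an adjusted p of 0.0417, lost in all 6 fits without 1 library. The 20 neighbours of GDI2 within 1 Mb had a median log2 difference of -0.40, beside -0.54 for GDI2. The prenyltransferase subunit gene RABGGTA did not pass (0.802), nor did RABGGTB (0.505, and 0.00246 with the block).

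Of the effectors, SYTL2, which binds RAB27 on secretory granules, had 41.5, 41.5 and 19.9 in WT and 131, 97.8 and 90.6 in the KO-labelled libraries. It rose 3.16-fold, opposite to RAB27B, at an adjusted p of 0.0377 (limma), which was lost without every library but WT replicate 1 (0.0776 to 0.117). UNC13D, another RAB27 effector, did not pass (0.119, and 0.00520 with the block). Among the other listed effectors, SYTL1, SYTL3, SYTL4 and EXPH5 passed neither with nor without the block, and SYTL5 and MYRIP were under the filter. RAB11FIP5, a RAB11 effector, rose 2.01-fold at an adjusted p of 0.0318, which was also lost without every library but WT replicate 1 (0.0895 to 0.133). RAB11FIP1, RAB11FIP2, RAB11FIP3 and RAB11FIP4 did not pass without the block, and all of these but RAB11FIP2 passed with it.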

How the data were processed

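RNA from 6 K562 libraries, 3 labelled WT and 3 labelled ACK KO, was analysed. Each deposited value is a signal, namely a count per gene that the authors normalised. Not given in the sources used here are its factor, the annotation and how reads were counted. The submitters' processing notes name GRCh38 and, with no role for each, DESeq2 1.26.0, STAR 2.7.2b, Salmon 1.1.0 and FastQC 0.11.7. Per the labels, stranded libraries were made from 500 ng of RNA.

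After log2(value + 1), limma 3.58.1 (R 4.3.3) with an intensity trend was run on genes at 10 or more in at least 3 of 6 libraries, adjusted by Benjamini-Hochberg over 16658 genes at a threshold of 0.05. Fold differences are on this log2 scale and understate those of low genes. Means and SD are of normalised values. The test was checked on simulated data. Tables used Python 3.11.15, pandas 2.3.3 and SciPy 1.17.1, and near copies BLAST 2.17.0. Symbols came from a name table, positions and exon lengths from GENCODE 29 and promoters from RefSeq.

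Deviations from the group means correlated across genes at 0.699, 0.521 and 0.342 between WT and KO-labelled libraries of replicates 1, 2 and 3, all above 0.1, so a second fit took the numbers as pairs, through a block. Unlike numbers 2 and 3 gave 0.257 and 0.281, also above 0.1, so this limit cannot show that libraries of numbers 2 and 3 are pairs.

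The members, roles and lists were chosen with earlier results of these data known. Named were the RAB genes past the threshold with or without the block and the genes under the filter. Also named were the gene of each role with the highest WT level per kb, and regulators past the threshold with at least 2-fold. Others were named outside these rules, among them HPS1, HPS4, MICALL2, UNC13D, CHM, RABGGTA and RABGGTB. Alternatives were the pseudocount, the filter, the scaling, the trend, the block, the exon length, the neighbour window and each library left out.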

Additional observations from a re-analysis of the deposited data

How the results depend on the processing

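With the replicate block, 21 RAB genes passed in place of 11, 10 higher and 11 lower, as did 52 of the 122 regulators tested in place of 12. Of all genes tested, 39.7% passed with the block in place of 10.3%. No RAB gene or regulator that passed without the block was lost with it. Without both replicate 1 libraries, an alternative chosen after seeing the data, 17 RAB genes passed, 7 of them higher, and 38 regulators, and RAB7A passed at an adjusted p of 0.0352 (limma). With 1 library left out, the RAB genes that passed numbered 5 to 11, those higher 3 to 4, those lower 2 to 7 and the regulators 4 to 18. The fewest RAB genes passed without WT replicate 3 and the most regulators without WT replicate 1, and these fits have fewer libraries. RAB13, RAB32, RAB15, RAB8B and RAB27B passed in all 6 such fits. The median log2 difference of the RAB genes ranged from -0.026 to 0.024 in them, and that of TNK2 from -0.32 to -0.05. Scaled to the same sum per library, 10 RAB genes passed and the median was 0.084. The sums of values were lower in the KO-labelled library of each replicate number, so this scaling raised the KO-labelled values against WT throughout. The shift of the median under this scaling is therefore not particular to RAB genes. The sign of small differences that did not pass turned there for RAB1B (0.014) and RAB5C (0.011), and with 1 library left out for RAB1B (-0.21 to 0.048), RAB5C (-0.48 to 0.16) and RAB35 (-0.47 to 0.013), and the cause was not tested. Another pseudocount, size factors, a stricter filter, no filter and no trend kept each count within 1.5 times. The share of all genes that passed is given here only for the fits with and without the block. The RAB and regulator counts of the other fits therefore cannot be set beside those of all genes. Depth is unknown, so the counting error of values near 0, as of RAB13 in WT, cannot be given.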

Other observations

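Replicate 1 was the highest or the lowest of the 3 replicates in both genotypes for many RAB genes, as for many genes of the whole table. It was the highest in both groups for 16 of the 49 RAB genes, the untested RAB37 among them, and the lowest in both for 16. Among all genes tested the shares were 34.4% and 33.3%, so this is no trait particular to RAB genes. Among the genes where it was lowest in both were RAB5C, RAB8A, RAB35 and RAB7A, of early endosomes, exocytosis, recycling and late endosomes, and among those where it was highest were RAB26, RAB3D and RAB6B. RAB2A held 61.9%, 74.5% and 74.0% of the RAB2 sum per kb across WT replicates 1 to 3, against 62.4%, 74.0% and 71.5% in the KO-labelled libraries, a share that followed the replicate number. RAB5C likewise held 36.8%, 64.2% and 59.2% of the RAB5 sum in WT and 44.2%, 59.8% and 54.9% in the KO-labelled libraries. The labels do not say what the replicate numbers stand for. The differences within the 3 replicate numbers had the same sign for 34 of the 46 RAB genes tested, or 73.9%, beside 65.8% of all genes tested.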
